A study of Homo sapiens and Mus musculus with 24 samples.

Results

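The loci described here are stretches of mouse chromatin that carry long runs of acetylated histone H3 lysine 27 (H3K27ac) in fetal liver. One lies at Gse1 on chromosome 8 from 120220000 to 120590000, the other at Nol4l and its flank on chromosome 2 from 153400000 to 153620000, both in mm10. Every peak of the 12 fetal liver lists that overlapped either interval was taken. This gave 1008 peaks at Gse1 and 739 at Nol4l, together 1747 of the 564622 peaks on the autosomes and chromosome X. The intervals were selected on the measured length of their H3K27ac domains, which are among the longest in these lists, so H3K27ac values are given as a description, with no test.

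Chromatin immunoprecipitation followed by sequencing was carried out on livers of mouse embryos at embryonic day 14.5. The wild-type (WT) groups were precipitated with antibodies against the HA tag (hemogen, from livers labelled WT), against H3K27ac or against BRG1. The fourth group was BRG1 precipitated from livers of hemogen knockout (KO) embryos. Each group had 2 library lists and 1 group list. The labels do not say how the HA tag was introduced, and an HA precipitate of untagged liver, H3K27ac in the KO, the inputs of both genotypes and the K562 libraries were not analysed here. The labels also do not say whether the libraries of a group came from separate animals, so the spread between them may be technical. Fetal liver is a mixture of erythroid, hepatic and other cells, and the labelled tissue could not be checked against marker genes because a mouse annotation was not used here.

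H3K27ac marks active promoters and enhancers, and long runs of it are found near genes that are highly active in a cell type. Hemogen is a nuclear protein made by blood-forming cells, and BRG1 is the ATPase that drives BAF (SWI/SNF) remodelling complexes along chromatin. Gse1 encodes a reported component of CoREST and histone deacetylase complexes, which also hold the lysine demethylase LSD1 and act as co-repressors in blood cells. Nol4l encodes the nucleolar protein 4-like protein, whose human counterpart has been found fused to RUNX1 or PAX5 in leukaemia. Positions of exons, introns and start sites within the intervals are not given here.

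The lists were made at unequal depth. Depth of the immunoprecipitate, worked out from the deposited peak values and set to 1 in WT BRG1 library 1, was 1.04 in WT BRG1 library 2. It was 0.406 and 0.342 in the KO BRG1 libraries, 0.720 and 1.02 in the hemogen libraries, and 0.791 and 0.843 in the H3K27ac libraries. Each KO library therefore had under 0.5 times the depth of each WT BRG1 library, and absence from a KO list is absence from a shallower list. Depth as scaled for calling was lower still in the KO BRG1 libraries, at 0.259 and 0.262. It was 0.861 in WT BRG1 library 2, with WT BRG1 library 1 again set to 1. In the Gse1 interval the summit of a peak rested on 13 to 67 fragments in hemogen library 1, on 17 to 49 in WT BRG1 library 1 and on 25 to 39 in KO BRG1 library 1.

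At Gse1, H3K27ac was called in many short, closely spaced peaks rather than in 1 unbroken block. The interval held 193 H3K27ac peaks in library 1 and 176 in library 2, covering 106 kb and 83.2 kb. Their median length was 349 bp and 326 bp, beside 278 bp and 282 bp over the whole lists. Merging the peaks of both libraries and keeping merged stretches with at least 1 peak of each gave 104 H3K27ac regions. The gaps between neighbouring regions had a median of 504 bp, against 2.60 kb over all 25305 H3K27ac regions of the genome.

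Joining H3K27ac regions less than 12.5 kb apart placed 76 of the 104 into a single domain from 120357723 to 120502412. This domain spanned 144.7 kb, of which H3K27ac regions covered 76.0 kb, and it ranked 2 among 7887 joined domains by covered length. The longest H3K27ac peaks clustered near its lower end. In library 1 the 3 longest, of 3.32, 3.13 and 3.02 kb, all lay between 120364982 and 120379796, and in library 2 the longest, of 2.98 kb, ran from 120372245 to 120375226. The second longest in library 2, of 2.42 kb, began at 120363989, while the next, of 2.34 kb, lay outside the domain from 120293744 to 120296081.

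Hemogen and BRG1 sat at the 2 ends of the Gse1 domain and were sparse between them. Regions of each factor were defined as for H3K27ac, which gave 23 hemogen and 12 WT BRG1 regions in the interval, 12 and 9 of them in the domain. With the domain split into 3 equal parts of 48.2 kb, the 9 BRG1 regions fell 3, 0 and 6 into the lower, middle and upper part, and the 12 hemogen regions fell 3, 0 and 9. H3K27ac was present in all 3 parts, covering 33.7, 17.0 and 25.1 kb in library 1 and 27.5, 14.2 and 19.7 kb in library 2. The middle part thus held the least H3K27ac, and no region of either factor was counted in it. The hemogen region from 120454034 to 120454872 crosses the border between the middle and upper part and was counted in the upper.

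The factor-free stretch ran from 120375561 to 120454033. Over these 78.5 kb there were 42 H3K27ac regions, which covered 39.3 kb or 50.1% of it. The stretch was not free of single-list calls: hemogen library 1 had 5 peaks there, library 2 had 1 and the group list 15, and WT BRG1 had 3, 1 and 6. KO BRG1 had 0 peaks there in all 3 lists. For BRG1 alone the stretch without a region was longer, 99.7 kb from 120375055 to 120474759, and held 52 H3K27ac and 4 hemogen regions.

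The hemogen and BRG1 regions of the Gse1 interval fell into 11 clusters, with regions less than 5 kb apart placed together. From the lower coordinate, the first cluster (120288433 to 120296413) lay before the domain and held 2 hemogen regions and BRG1 region 1, counting BRG1 regions in order along the chromosome. Single hemogen regions followed at 4 places between 120319537 and 120344591, of which the one at 120335385 to 120336480 held BRG1 region 2. Inside the domain, the cluster at 120368451 to 120375560 held 3 hemogen regions and BRG1 regions 3, 4 and 5. Beyond the long stretch, a cluster at 120454034 to 120457202 held 2 hemogen regions and no BRG1 region.

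The Gse1 cluster with most regions, at 120474311 to 120491376, measured 17.1 kb and held 5 hemogen regions, 5 BRG1 regions (6 to 10) and 11 H3K27ac regions. Within it, 1 hemogen region of 6.12 kb (120485220 to 120491342) spanned BRG1 regions 7, 8, 9 and 10. BRG1 region 11 lay in the next cluster, which crossed the end of the domain. BRG1 region 12, the longest at 5.02 kb, lay past the domain at 120535710 to 120540731 inside a hemogen region of 5.90 kb, and a lone hemogen region at 120588808 to 120589894 closed the interval.

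Agreement between libraries was checked next. At Gse1 122 of 193 H3K27ac peaks of library 1 (63.2%) overlapped library 2, beside 40.2% of that whole list, and 138 of 176 of library 2 (78.4%) overlapped library 1, beside 63.5%. At Nol4l the H3K27ac shares were 67.1% and 81.7%. Hemogen peaks of library 1 overlapped library 2 at 45.9% in Gse1 and 55.3% in Nol4l, beside 58.1%, and those of library 2 overlapped library 1 at 75.0% and 79.5%, beside 78%. For WT BRG1 the shares were 48.6% and 76.2%, beside 58.4%, and 78.1% and 77.8%, beside 81%. Among the few KO BRG1 peaks, 7 of 12 at Gse1 and 1 of 4 at Nol4l of library 1 lay in library 2, beside 52.3%, and 6 of 10 and 1 of 11 of library 2 lay in library 1, beside 28.9%. The H3K27ac peaks of both loci were shared between libraries more often than the whole lists, and the KO libraries shared the smallest part of their peaks at Nol4l. The choice of the intervals on H3K27ac favours high shares for that mark, so its values are a description.

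At Nol4l the order of the factors differed, with hemogen and BRG1 spread along the domain. The interval held 146 H3K27ac peaks in library 1 and 126 in library 2, covering 73.3 kb and 55.5 kb, and 83 H3K27ac regions. Of these, 74 joined into a domain from 153474648 to 153613405 that spanned 139 kb, had 61.7 kb covered and ranked 5 of 7887. The domain is less compact than that at Gse1: joining only regions less than 5 kb apart left the Gse1 domain at 76.0 kb covered and reduced the largest Nol4l domain to 33.1 kb. Its longest H3K27ac peak was 3.01 kb in library 1 (153526699 to 153529710) and 2.58 kb in library 2 (153495980 to 153498558).

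The next longest H3K27ac peaks at Nol4l were shorter, at 1.71 kb (153496731 to 153498444) and 1.52 kb (153607383 to 153608905) in library 1. In library 2 they were 1.51 kb (153526141 to 153527654) and 1.38 kb (153493876 to 153495254). Except for the 1.52 kb peak near the upper end, these long peaks therefore fell at or beside the 2 clusters with most hemogen and BRG1 regions, 153490601 to 153496708 and 153519876 to 153529832.

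**Figure D1:**
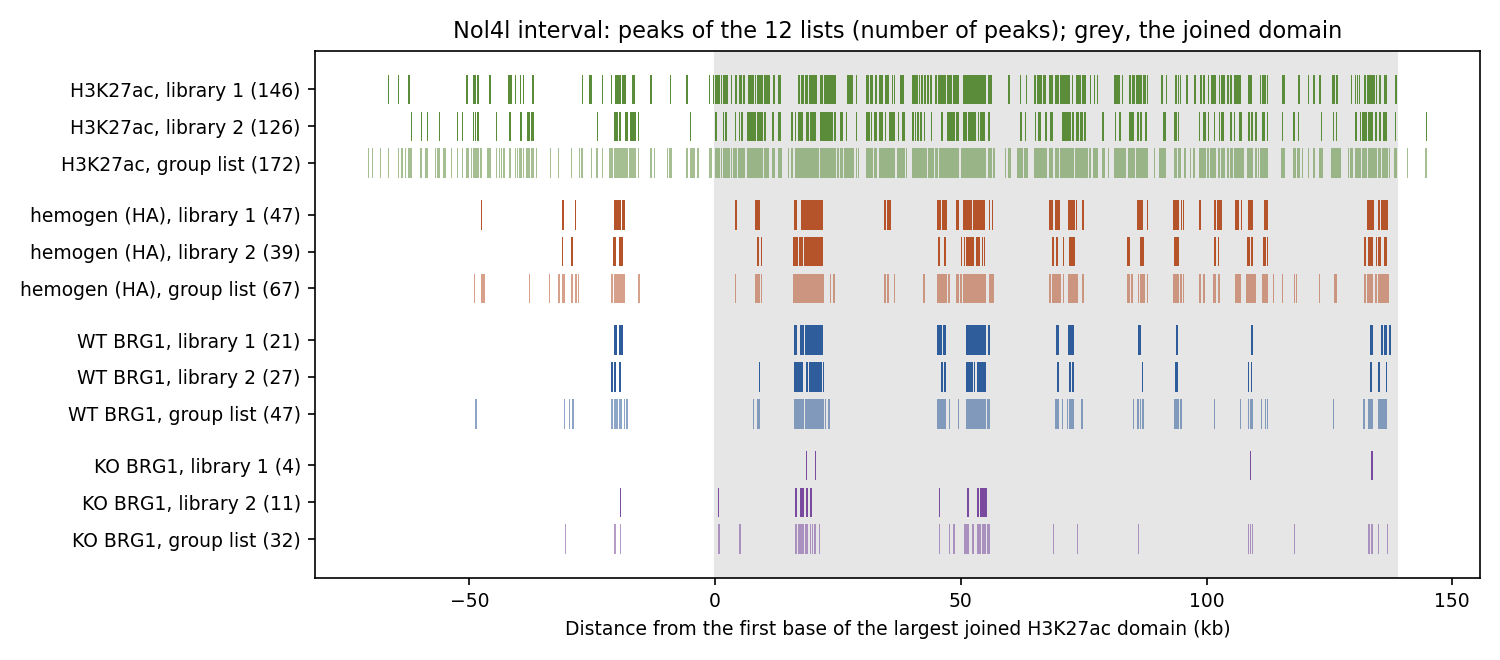
Peaks of the 12 lists along the Nol4l interval, drawn as for Gse1 with the distance in kb from the first base of the joined H3K27ac domain (grey). Hemogen and WT BRG1 peaks recur along the whole domain, with the clusters of most regions at 16.0 to 22.1 kb and at 45.2 to 55.2 kb.

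The Nol4l domain held 21 hemogen and 13 BRG1 regions. In its 3 equal parts of 46.3 kb the BRG1 regions numbered 5, 4 and 4 and the hemogen regions 5, 8 and 8. H3K27ac covered 25.5, 22.5 and 16.0 kb of them in library 1 and 20.1, 15.3 and 11.5 kb in library 2. The longest stretch inside the domain with neither factor measured 23.2 kb (153496709 to 153519875), where 13 H3K27ac regions covered 46.9%. WT BRG1 had 0 peaks there in library 1 and 1 in library 2.

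The whole Nol4l interval also held 23 hemogen regions, with 15 BRG1 regions, again in 11 clusters. Before the domain lay a lone hemogen region at 153443472 to 153443788 and then a strong one at 153453963 to 153456292, which held BRG1 regions 1 and 2. The first large cluster of the domain, at 153490601 to 153496708, held 3 hemogen regions and BRG1 regions 3 to 6. The second, at 153519876 to 153529832, held 5 hemogen regions and BRG1 regions 7, 8 and 9. Between 153543013 and 153569073 lay 5 hemogen regions with BRG1 regions 10, 11 and 12, and further up came BRG1 region 13 (153583740 to 153584008) and, in the last cluster (153607390 to 153611500), regions 14 and 15.

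By median gap, regions of a factor lay closer together at Nol4l. The median gap between neighbouring BRG1 regions was 3.18 kb at Nol4l and 6.70 kb at Gse1, beside 17.8 kb over all BRG1 regions. For hemogen it was 2.63 kb at Nol4l, 4.30 kb at Gse1 and 11.0 kb over all regions. Gaps under 1 kb numbered 5 of 11 at Gse1 and 5 of 14 at Nol4l for BRG1, and 4 of 22 and 9 of 22 for hemogen. The Gse1 interval is also the longer, at 370 kb against 220 kb. Short gaps are favoured by the choice of broad domains, and these values are a description.

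Most of the strongest hemogen regions at both loci held BRG1. Strength here means a region's percentile by −log10 p, taken in each library list and averaged over the 2. At Gse1 the 5 strongest were those at 120368548 to 120373312 (99.6), 120485220 to 120491342 (97.6), 120474311 to 120476241 (97.5), 120292444 to 120296413 (96.2) and 120535145 to 120541041 (87.9). The authors' fold enrichment at the first was 8.14 in library 1 and 8.42 in library 2. It was 7.62 and 7.35 at the second, 6.11 and 8.31 at the third, 6.53 and 5.81 at the fourth, and 5.36 and 4.82 at the fifth. Each of these held a WT BRG1 region, and each overlapped a BRG1 peak in KO library 1. All but the third also overlapped a peak in KO library 2. Such shares were not worked out over all hemogen regions of like strength, so nothing particular to either locus is read from them.

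At Nol4l the 5 strongest hemogen regions were at 153493145 to 153496708 (98.8), 153453963 to 153456292 (98.4), 153586102 to 153587172 (95.8), 153567880 to 153569073 (95.7) and 153525565 to 153527694 (93.0). Folds in libraries 1 and 2 were 8.13 and 8.92 at the first and 9.99 and 8.64 at the second, the highest of the Nol4l hemogen regions in library 1. The first overlapped a BRG1 peak in both KO libraries and the second in KO library 2. They were 8.45 and 7.44 at the region starting at 153586102, which had 0 WT BRG1 peaks in either library and 2 in the group list. At 153567880 hemogen had folds of 6.31 and 7.92, whereas its BRG1 region 12 had a strength of 36.3 and no overlap with any KO list. At 153525565 they were 6.85 and 4.55, with BRG1 in WT and in KO library 2.

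Summits of the factors were nearer each other at Nol4l. Among overlapping hemogen and BRG1 regions, the median distance between the strongest summits was 850 bp at Gse1 (13 pairs) and 255 bp at Nol4l (17 pairs) in libraries 1, and 1152 bp and 152 bp in libraries 2. Over all 13573 pairs it was 288 bp and 287 bp. At Gse1, 4 of the 13 pairs shared the hemogen region of 6.12 kb. In libraries 1 the closest summits were 23 bp apart at Gse1, at BRG1 region 2, and 11 bp apart at Nol4l, at BRG1 region 12, and neither region was called in the KO. In libraries 2 they were 5 bp apart, at region 4 of Gse1, and 1 bp apart, at region 14 of Nol4l, and both regions were called in the KO. The closest pair thus changed with the library, and at region 12 of Nol4l the distance in libraries 2 was 421 bp.

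Few of the H3K27ac regions in either interval held a factor, fewer than over the genome. At Gse1 26 of 104 H3K27ac regions (25.0%, exact 95% binomial interval 17.0 to 34.4) overlapped hemogen and 16 (15.4%) overlapped BRG1, and at Nol4l 28 of 83 (33.7%, 23.7 to 44.9) and 16 (19.3%) did. Over all H3K27ac regions the shares were 49% and 37.2%. Binomial intervals here cover counting error over regions, not animals. The intervals were picked for their many H3K27ac regions, so the denominators are part of the choice.

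H3K27ac regions with a factor were the longer ones. At Gse1 the 16 with both factors had a median length of 1280 bp and a median strength of 87.4, the 10 with hemogen only 760 bp and 72.1, and the 78 with neither 565 bp and 54.9. At Nol4l the 16 with both had 896 bp and 73.1, the 12 with hemogen only 742 bp and 56.8, and the 55 with neither 613 bp and 61.7. The order of lengths was the same over all H3K27ac regions. There the regions with both had 691 bp and 76.8, those with hemogen only 500.5 bp and 60.3, and those with neither 471 bp and 54.3. No H3K27ac region in either interval held BRG1 without hemogen, and such regions were also rare over the genome, at 0.897%. A longer region also has more bases in which a peak can overlap it.

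Seen from the factors, most of their regions were acetylated. Of the hemogen regions, 16 of 23 at Gse1 (69.6%) and 20 of 23 at Nol4l (87.0%) overlapped H3K27ac, against 39.8% over all 25631. Of the BRG1 regions, 10 of 12 (83.3%) and 13 of 15 (86.7%) did, against 63.9% over all 13213. The choice of the intervals on H3K27ac favours high shares here. The BRG1 regions without H3K27ac were regions 2 and 10 at Gse1 and regions 3 and 10 at Nol4l.

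BRG1 regions lay on hemogen at a share near the background. At Gse1 11 of 12 and at Nol4l 15 of 15 overlapped a hemogen region, beside 96.6% of all BRG1 regions. The exception, BRG1 region 5 of Gse1 (120374749 to 120375054), lay between hemogen regions and had folds of 3.17 and 3.12. In the other direction, 9 of 23 hemogen regions at Gse1 (39.1%, 19.7 to 61.5) and 14 of 23 at Nol4l (60.9%, 38.5 to 80.3) held a BRG1 region, against 41.6% of all hemogen regions, and the intervals of the 2 loci overlap. Among acetylated hemogen regions the background was higher, at 76.4%. Of these, 9 of 16 at Gse1 (56.2%, 29.9 to 80.2) and 12 of 20 at Nol4l (60.0%, 36.1 to 80.9) held BRG1. Both shares lay below that background, and the interval of each locus reaches it. For the 2 loci together 21 of 36 held BRG1 (58.3%, 40.8 to 74.5), an interval below that background. The difference was not tested. Against the deeper WT BRG1 group list 19 of 23 hemogen regions at each locus had BRG1, beside 71.9%. Of the single peaks of hemogen library 1, 21.3% at Gse1 and 38.3% at Nol4l met a BRG1 region. Against the peaks of WT BRG1 library 1 alone the share of hemogen regions was 65.2% at Gse1 and 65.2% at Nol4l. For these single-library values the share over the genome was not worked out.

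**Figure D2:**
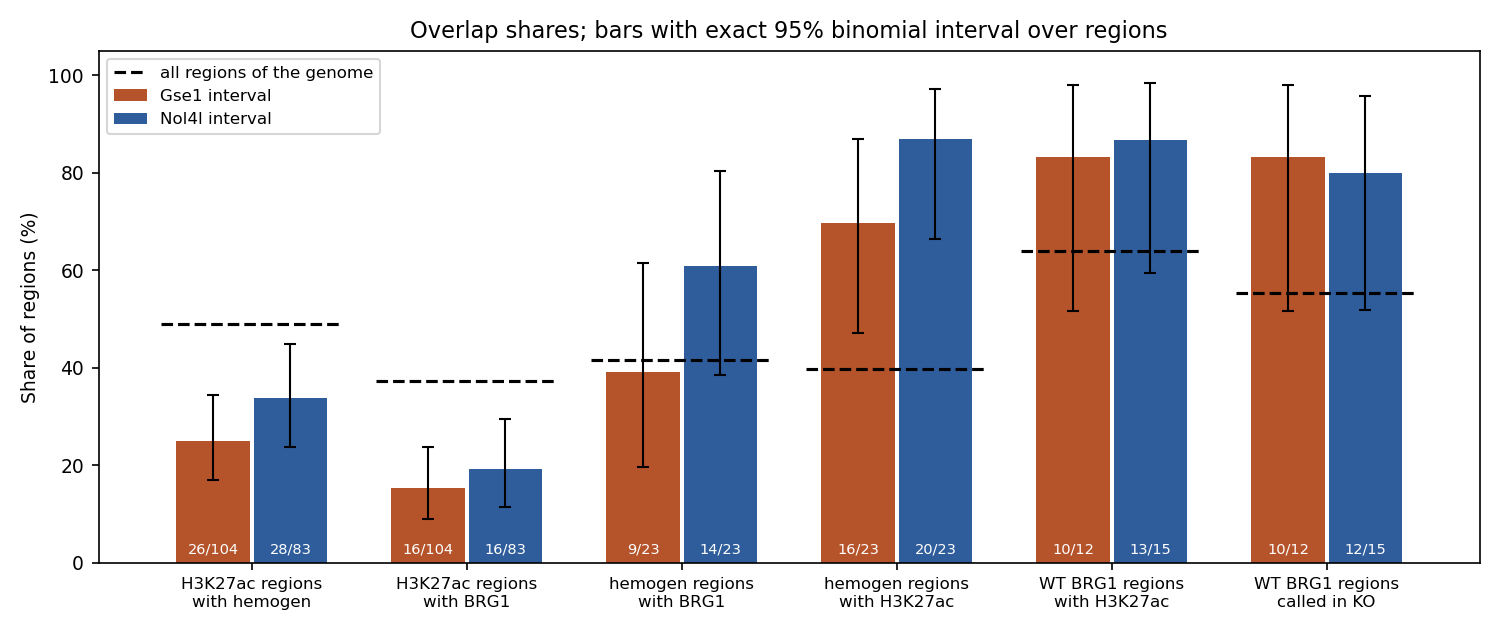
Share of regions (vertical axis, %) that overlap another mark or are called in the KO, for the Gse1 interval and the Nol4l interval, with exact 95% binomial intervals as error bars, counts in the bars and the share over all regions of the genome as a dashed line. H3K27ac regions with hemogen lie below the dashed line at both loci, and BRG1 regions called in the KO lie above it, with error bars that reach it.

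In hemogen KO liver fewer BRG1 peaks were listed in both intervals, as over the whole lists. At Gse1 the WT libraries had 37 and 32 BRG1 peaks and the KO libraries 12 and 10. At Nol4l the WT libraries had 21 and 27 and the KO libraries 4 and 11. The groups did not overlap at either locus. The WT mean was 34.5 ± 3.54 (SD, n = 2) and the KO mean 11.0 ± 1.41 at Gse1, a ratio of 3.14, and 24.0 ± 4.24 and 7.50 ± 4.95 at Nol4l, a ratio of 3.20. An exact permutation test, two-sided, gave p = 0.333 at each locus, the smallest that 2 against 2 libraries allow.

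The lower peak number in the KO was not seen at equal list lengths, but this cut cannot show whether BRG1 was lost. It gives every list the same number of peaks, so it removes any difference over the whole genome, whatever its origin. The counts then show only how large a part of each list lay in the intervals. The whole WT lists were 5.40 times as long as the KO lists. With each BRG1 library list cut to its 3205 strongest peaks, Gse1 had 6 and 6 peaks in WT and 12 and 4 in the KO, and Nol4l had 1 and 3 in WT and 4 and 7 in the KO. The ratio of WT to KO was then 0.75 at Gse1 (exact permutation p = 1.0) and 0.364 at Nol4l (exact permutation p = 0.333). At Gse1 the groups overlapped, and the ratio below 1 rested on KO library 1, since both WT libraries had more peaks than KO library 2. As a share of the deposited lists, the Gse1 interval took 0.141% and 0.151% of the WT peaks and 0.374% and 0.179% of the KO peaks, and the Nol4l interval 0.080% and 0.128% in WT and 0.125% and 0.197% in the KO.

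Most WT BRG1 regions of both loci had a BRG1 call in at least 1 of the 3 KO lists. At Gse1 10 of 12 did (83.3%, exact 95% interval 51.6 to 97.9) and at Nol4l 12 of 15 (80.0%, 51.9 to 95.7), against a background of 55.3%. For both loci together 22 of 27 did (81.5%, 61.9 to 93.7). The background depends on strength: it was 72.5% above and 38.1% below the median strength of all BRG1 regions. Above the median 7 of 7 were called at Gse1 and 5 of 5 at Nol4l, and below it 3 of 5 and 7 of 10. Among acetylated BRG1 regions 9 of 10 and 11 of 13 were called, beside 70.7%, and in domains of at least 10 H3K27ac regions 9 of 11 and 10 of 13, beside 56.5%. The counts are small and no test of them against the background was made.

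Calls were also counted by KO library. KO library 1 had a peak at 6 of 12 BRG1 regions of Gse1 and at 3 of 15 of Nol4l (background 18.4%), and KO library 2 at 4 of 12 and 8 of 15 (28.9%). A call in both KO libraries was found at 4 of 12 (33.3%) and 2 of 15 (13.3%), beside 12.1%. Such a call does not require that the KO peaks of the 2 libraries overlap each other. The exact 95% intervals of the 2 loci overlapped for each library, 21.1 to 78.9% and 4.33 to 48.1% for library 1 and 9.92 to 65.1% and 26.6 to 78.7% for library 2, and the difference was not tested. The calls in both libraries at Gse1 were regions 1, 4, 8 and 12, with regions 6 and 9 in library 1 only. At Nol4l they were regions 5 and 6, with region 14 in library 1 only and regions 2, 3, 4, 7, 8 and 9 in library 2 only. Regions 3, 5, 10 and 11 of Gse1 and regions 1, 13 and 15 of Nol4l were called in the KO group list alone. Scored on group lists, 12 of 54 WT peaks at Gse1 (22.2%) and 17 of 47 at Nol4l (36.2%) met a KO peak, beside 24.6%.

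The regions called in both KO libraries were long or strong in WT. BRG1 region 4 of Gse1 (120369211 to 120374103) was 4.89 kb long with folds of 5.55 and 5.65. The strongest summit of each library within it rested on 43 and 50 fragments in WT and on 32 and 51 in the KO. These summits were not all at 1 place. The WT summits lay at 120371152 and 120371943, and the KO peaks at 120371852 to 120372033 (library 1) and 120370069 to 120370325 (library 2). Fragments of the other regions are likewise those of each library's own strongest summit. Region 1 (120292451 to 120296107) had 45 and 41 fragments in WT and 38 and 35 in the KO. Region 8 (120485526 to 120488607) had 43 and 43 in WT and 27 and 32 in the KO, and region 12 had 39 and 39 in WT and 29 and 30 in the KO. Fragments are not scaled to depth, and a called summit must hold enough of them to pass the threshold, so no ratio is drawn from these values.

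At Nol4l region 5 (153492900 to 153493709) had 37 and 39 summit fragments in WT and 30 and 37 in the KO. The adjoining region 6 (153493784 to 153496574) had 36 and 36 in WT and 26 and 31 in the KO. The KO peaks of the 2 libraries overlapped each other in region 5. In region 6 they did not, at 153494943 to 153495192 in library 1 and 153493953 to 153494290 in library 2. The strongest WT BRG1 region of the locus was region 9 (153527822 to 153529832), with folds of 6.07 and 4.32 and 54 and 52 fragments. It had no peak in KO library 1 and 37 fragments in KO library 2. Region 9 was thus called from KO library 2 and the KO group list alone.

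**Figure D3:**
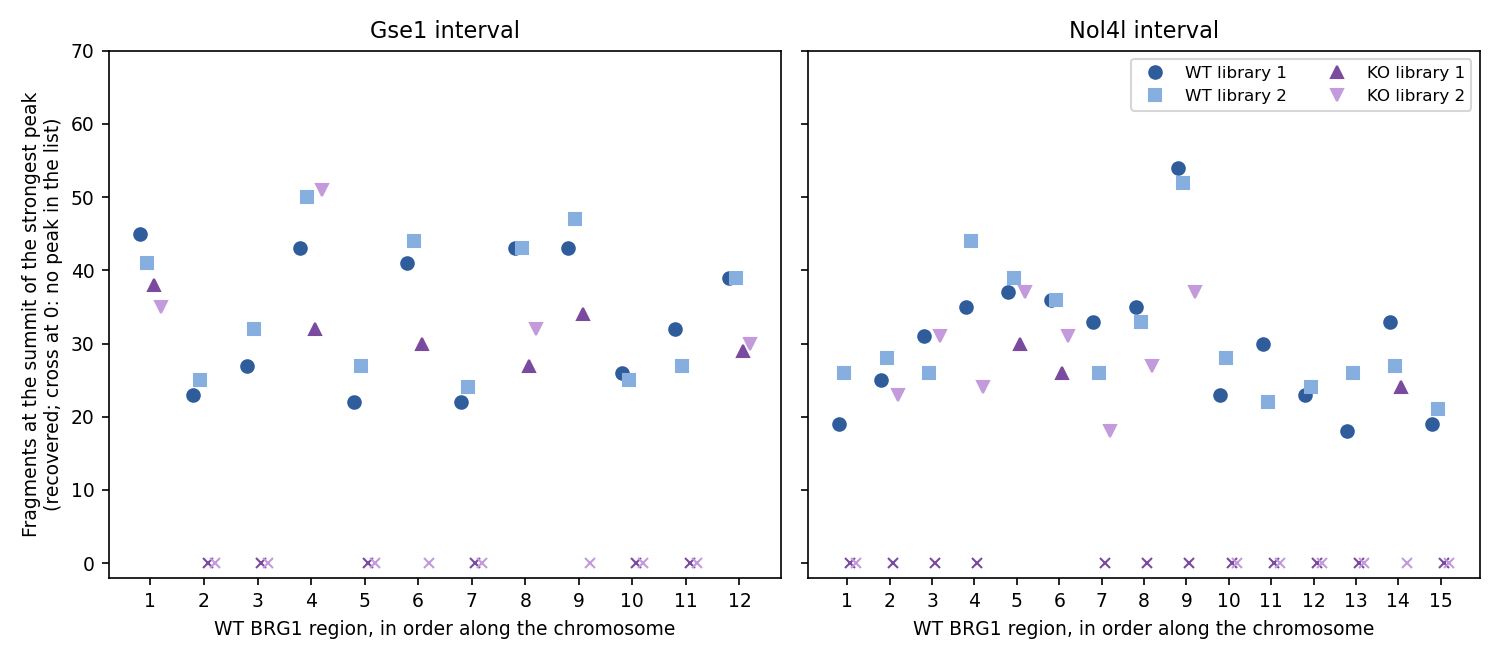
Fragments at the strongest BRG1 summit that each library has within each WT BRG1 region, for the 2 WT and 2 KO libraries. The vertical axis is recovered from the authors' values and not scaled to depth, and the horizontal axis is the order along the chromosome. Summits of different libraries can lie at different places in a region. A cross at 0 means that the KO library has no peak there, not that it has no fragments. KO calls at Gse1 rest on 27 to 51 fragments and at Nol4l on 18 to 37.

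BRG1 regions in none of the KO lists were of middle or low strength and at most 1317 bp long. At Gse1 these were region 2 (120335949 to 120336337), 389 bp long with a strength of 50.0, 23 and 25 fragments and no H3K27ac region, and region 7 (120484836 to 120485326), 491 bp long with a strength of 20.9 and 22 and 24 fragments. A KO group-list peak lay beside region 2, from 120335620 to 120335771, within the same hemogen region. Every BRG1 region over 2 kb was called, 4 at Gse1 and 3 at Nol4l, but so were 95.7% of all BRG1 regions of that length. Of those up to 2 kb, 6 of 8 and 9 of 12 were called, beside 51.8%.

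At Nol4l the regions in none of the KO lists were 3 neighbours past the second large cluster of the domain. Region 10 (153544095 to 153544593) had a strength of 36.6 with 23 and 28 fragments, region 11 (153546390 to 153547706) 52.4 with 30 and 22, and region 12 (153568210 to 153568898) 36.3 with 23 and 24. The 3 weakest BRG1 regions of the locus, region 13 at 17.9, region 15 at 22.8 and region 3 at 34.1, were all called in the KO group list. Strength alone therefore did not separate called from uncalled regions at this locus.

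Few BRG1 peaks appeared only in the KO. At Gse1 all 12 peaks of KO library 1 and all 10 of library 2 overlapped a WT BRG1 list, and at Nol4l 4 of 4 and 10 of 11 did, beside 98% and 95.9% of the whole KO lists. The exception was at 153475224 to 153475491 near the lower end of the Nol4l domain, with a fold of 6.45 and 15 summit fragments, outside hemogen and H3K27ac regions. The KO group list had a peak there as well, from 153475313 to 153475481, and KO library 1 had none. In the KO group list 33 of 37 peaks at Gse1 and 26 of 32 at Nol4l overlapped a WT list, beside 89.1%.

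Per length of H3K27ac, the Gse1 domain held fewer factor regions than the Nol4l domain. The Gse1 domain had 1.58 hemogen and 1.18 BRG1 regions per 10 kb of H3K27ac, and the Nol4l domain 3.40 and 2.11. The medians over the 559 domains of at least 10 H3K27ac regions, most of them far shorter, were 4.55 and 3.43. The divisor is the length that chose the loci, so nothing is read from these medians. The domains nearest in covered length, ranked 3, 4, 6 and 7, on chromosomes 10, 11, 3 and 9, covered 68.1, 64.7, 56.2 and 55.7 kb and had 2.94, 2.16, 3.20 and 0.897 hemogen and 2.06, 2.16, 2.67 and 0.897 BRG1 regions per 10 kb. The hemogen value at Nol4l lay above all 4, and the other values at the 2 loci lay within their range.

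BRG1 regions with a KO call numbered 8 of 9 in the Gse1 domain and 10 of 13 in the Nol4l domain. In the 4 like domains they numbered 12 of 14 (rank 3), 6 of 14 (rank 4), 5 of 15 (rank 6) and 4 of 5 (rank 7). The domains of similar length thus spread over a wide range, and the values at Gse1 and Nol4l lie inside it or just above it. These counts were not tested.

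**Figure D4:**
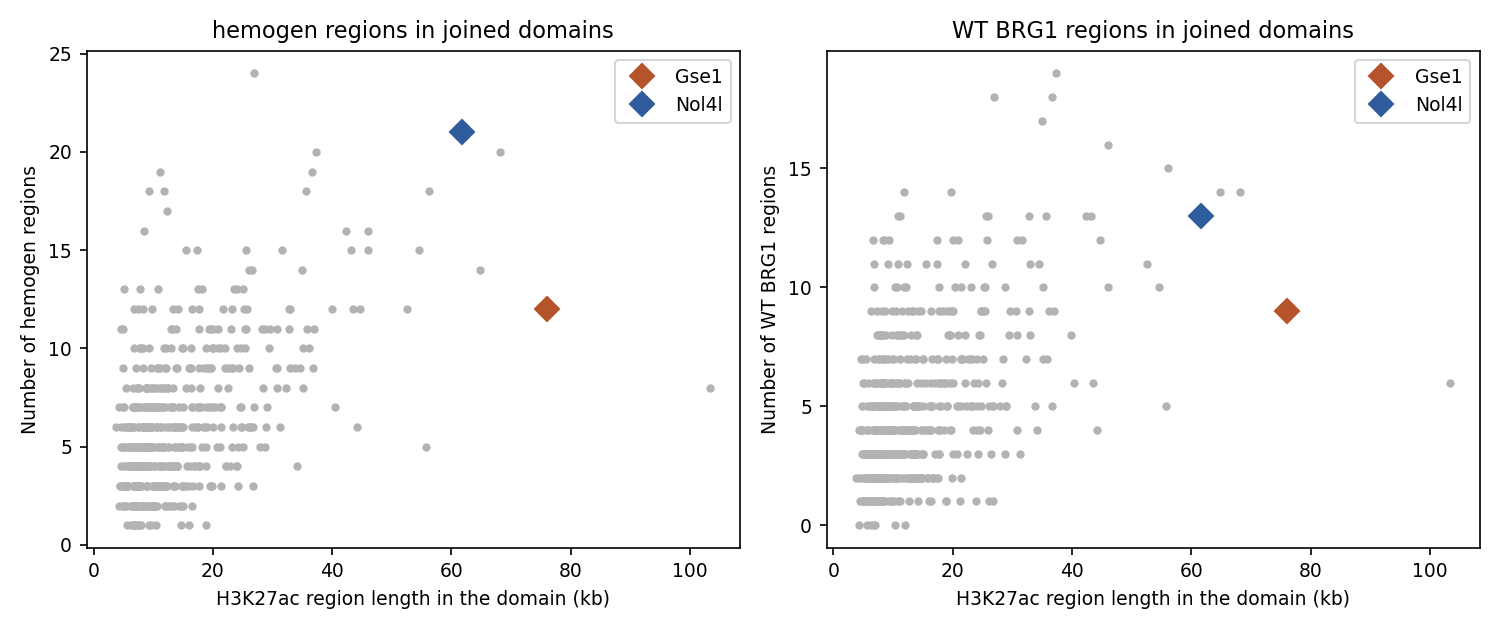
Number of hemogen regions (left) and WT BRG1 regions (right) against the length covered by H3K27ac regions in kb for the 559 joined domains of at least 10 H3K27ac regions, 1 point per domain. Gse1 and Nol4l are marked with diamonds, at 76.0 kb with 12 and 9 regions and at 61.7 kb with 21 and 13.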

How the data were processed

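Peak lists of 8 fetal liver libraries and 4 groups were used, in narrowPeak layout with no header, so the meaning of the columns rests on that layout. The submitters' processing notes list MACS2 2.2.7.1, Picard 2.21.4, Bowtie2 2.3.5 and SAMtools 1.9 without saying what each did. The build is inferred: contig names and positions fit mm10, and no position was converted. Filters and controls: not given in the sources used here. For each peak the authors deposited a display score (used only to check the layout), a fold enrichment (ratio to local background), and the −log10 of its p-value and of its q-value. Each list's lowest −log10 q was 1.30 to 1.37. Peaks were ranked, filtered and described by these within 1 list at a time.

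Groups and library numbers came from the titles. The peak names inside the hemogen lists number their libraries 3 and 4 where the titles have 1 and 2, and each list was used as assigned to its sample. Peaks on 19 autosomes and chromosome X were kept. Peaks sharing 1 bp overlap. A region is merged peaks of both libraries with at least 1 of each. A WT BRG1 region is called in the KO when it overlaps a peak of either KO library or the KO group list. Peak numbers per library were tested by exact permutation (2 against 2), and shares have exact (Clopper-Pearson) 95% binomial intervals. Summit fragments and depth were recovered by reading p as an upper Poisson tail and fold as height plus 1 over background plus 1, an assumption about the caller. Between 97.9% and 100% of the peaks used, about 2000 or more per list, gave whole fragments within 0.01. On simulated data overlap, coverage and joining gave 0 differences, and 0, 5 and 2 of 600 recovered counts were wrong in 3 settings. The simulated backgrounds were all above 1. Those of KO BRG1 library 1, library 2 and the group list were 0.562, 0.631 and 0.926, outside that range. Depth of the immunoprecipitate was the lowest recurring background of a list over its shortest peak length and the height of 1 fragment, and was not simulated. Depth as scaled for calling leaves out the division by that height.

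Named were every WT BRG1 region and KO library peak outside WT lists, the 5 strongest hemogen regions, the 3 longest H3K27ac peaks per library, and the domains nearest in covered length. Members, lists and rules were chosen with earlier results of these data known. Promoters, the CoREST gene list, the Nol4 paralog, marker genes and motifs need a mouse annotation or genome and were not analysed here. The software was SciPy 1.17.1, pandas 2.3.3, NumPy 2.4.6 and Matplotlib 3.10.9 under Python 3.11.15.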

Additional observations from a re-analysis of the deposited data

How the results depend on the processing

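Of 70 alternative values, 47 stayed within the spread or interval of the reported value, 21 moved beyond it and 2 ratios fell to the other side of 1. With a minimum −log10 q of 5, H3K27ac regions with hemogen at Gse1 came to 37.2%, hemogen regions with BRG1 at Nol4l to 29.4%, and the length covered by H3K27ac to 62.1 kb at Gse1 and 41.1 kb at Nol4l. With the authors' group lists, that length came to 175 and 117 kb, and BRG1 called in the KO to 22.2% and 36.2%, beside 24.6%. A call in both KO libraries gave 33.3% and 13.3%, beside 12.1%. With BRG1 lists trimmed to equal length the ratio of WT to KO peaks was 0.75 at Gse1 (exact permutation p = 1.0) and 0.364 at Nol4l (p = 0.333). The cause of these shifts was not tested. A replicate block, in which each WT peak was scored only in the KO library of the same number, gave 21.7% and 25.0% called, and an exact sign-flip permutation p of 0.5 for the ratios of 3.14 and 3.20, the smallest that 2 pairs allow. The labels do not say that a number marks a shared animal or day. Leaving out each library in turn, in the order Gse1 then Nol4l, gave 33.3 to 65.6% and 20.0 to 63.0% called in the KO, 19.9 to 34.6% and 24.0 to 45.8% of H3K27ac regions with hemogen, 21.3 to 65.2% and 38.3 to 69.6% of hemogen regions with BRG1, 83.2 to 106 kb and 55.5 to 73.3 kb of H3K27ac, and ratios of 2.88 to 3.45 and 2.18 to 6.0. Leaving out a KO library also dropped the KO group list, which pools it, and leaving out another library scored single-library peaks of that group in place of regions, so these ranges do not isolate a library. An overlap of 50% of the shorter interval moved none of the 6 shares it was run on beyond their intervals. For the minimum −log10 q of 5, the replicate block, this overlap and the left-out WT libraries, the share over the genome was not worked out. Those shares cannot be set against the backgrounds given above. Peak lists hold no counts outside peaks, so a difference in occupancy at a region not called in the shallower KO libraries was not detectable.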
